A study of Rattus norvegicus with 9 samples.

Results

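Adrenomedullin, its relative adrenomedullin 2 and the receptor parts that bind them were followed in rat bone through 6 genes, Adm, Adm2, Calcrl, Ramp1, Ramp2 and Ramp3, of the 23026 genes in the expression tables. They were chosen by name as one signalling system, and the choice was made from these data, because Ramp2 stood out between OVX-AS-IV-High and Sham bone. The values of Ramp2, and of every member in OVX-AS-IV-High vs. Sham, are therefore a description and carry no p-value.

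Female Sprague–Dawley rats, bought at 8 weeks of age, made up all 3 groups, and bone RNA from 3 rats of each group of 5 was sequenced, giving 9 libraries. Sham rats kept their ovaries and lost a matching amount of fat beside the ovary. OVX rats had both ovaries removed, a model of bone loss after menopause, and received the carrier, sodium carboxymethyl cellulose (CMC-Na). The treated rats, OVX-AS-IV-High, had the same operation and, from 6 weeks after it, Astragaloside IV (AS-IV, a saponin of Astragalus root) by gavage at 80 mg/kg for 8 weeks. The methods give 1% CMC-Na as the carrier of Sham and OVX rats, whereas the labels of Sham replicates 1, 2 and 3 give 1%, 2% and 3%, and the 3 libraries were kept as 1 group. The replicates are separate animals, described as independent biological replicates.

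Adrenomedullin is a secreted peptide of the calcitonin family that widens blood vessels, keeps their walls tight and also acts on bone-forming cells. Its receptor has a part that crosses the membrane repeatedly, the calcitonin receptor-like receptor encoded by Calcrl, and a single-pass partner, a receptor activity-modifying protein (RAMP). With the Ramp1 product the pair mainly binds calcitonin gene-related peptide (CGRP), and with the Ramp2 or Ramp3 product it mainly binds adrenomedullin. The signal is passed on largely through cyclic AMP. Endothelial cells are a well-known site of Calcrl and Ramp2 expression.

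Library totals lay between 34874880 and 37298250 counts, and 16874 genes passed the filter on low counts. With edgeR, 0 genes (0%) reached an adjusted p (Benjamini–Hochberg) under 0.05 in any of the 3 comparisons. At an unadjusted p under 0.05 there were 2775 genes (16.4%) in OVX vs. Sham, 1089 (6.45%) for OVX-AS-IV-High vs. OVX and 2978 (17.6%) for OVX-AS-IV-High vs. Sham, while DESeq2 gave an adjusted p under 0.05 to 834, 37 and 1009 genes. The study's thresholds for DEGs are here those of the paper's results, an unadjusted p under 0.05 with an absolute log2FC over 1. The paper's methods give a lower log2FC cut, which was not used here. The thresholds of the results were passed by 525 genes (3.11%), 140 genes (0.83%) and 531 genes (3.15%) in the same order. Summed osteoblast markers lay between 3065 and 11530 CPM (counts scaled to library size) in the 9 libraries, so each held bone RNA. Summed skeletal muscle markers ranged from 467 to 7959 CPM, with 1334 to 7959 in Sham, 1328 to 2860 in OVX and 467 to 4167 in treated rats. In bulk bone, fewer cells of a type and less RNA per cell cannot be told apart.

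Of the members, 5 of 6 passed the filter, all but Adm2, and 4 of these are members other than Ramp2. Their tests reuse libraries behind the choice made on Ramp2, so they are not independent of it. In OVX vs. Sham 0 of these 4 genes passed either call rule, where 3.11% of all genes passed the study's thresholds, and DESeq2 also called 0 by either rule. At an unadjusted p under 0.05 the count in OVX vs. Sham was 0 of 4, against 16.4% of all genes. It depended on OVX replicate 2, without which Ramp3 and Adm had an unadjusted p of 0.00448 and 0.00523 by edgeR. The share of all genes at that cut was not counted without this library. In OVX-AS-IV-High vs. OVX 0 of 4 passed either call rule by edgeR or by DESeq2, against 0.83% of all genes at the study's thresholds, and 1 of 4, Adm, had an unadjusted p under 0.05, where 6.45% of all genes had. With the replicate number as a block, Calcrl had one as well, which makes 2 of 4. The share of all genes at that cut was not counted for the blocked fit, so nothing is read from this count. Adm, at -0.97 in the fit without a block, would pass the lower log2FC cut of the paper's methods, but was at -0.41 without OVX replicate 2. The share of all genes past that cut was not counted, so nothing is read from this. Both comparisons use the same OVX libraries, and each shares a group with OVX-AS-IV-High vs. Sham.

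**Figure D1:**
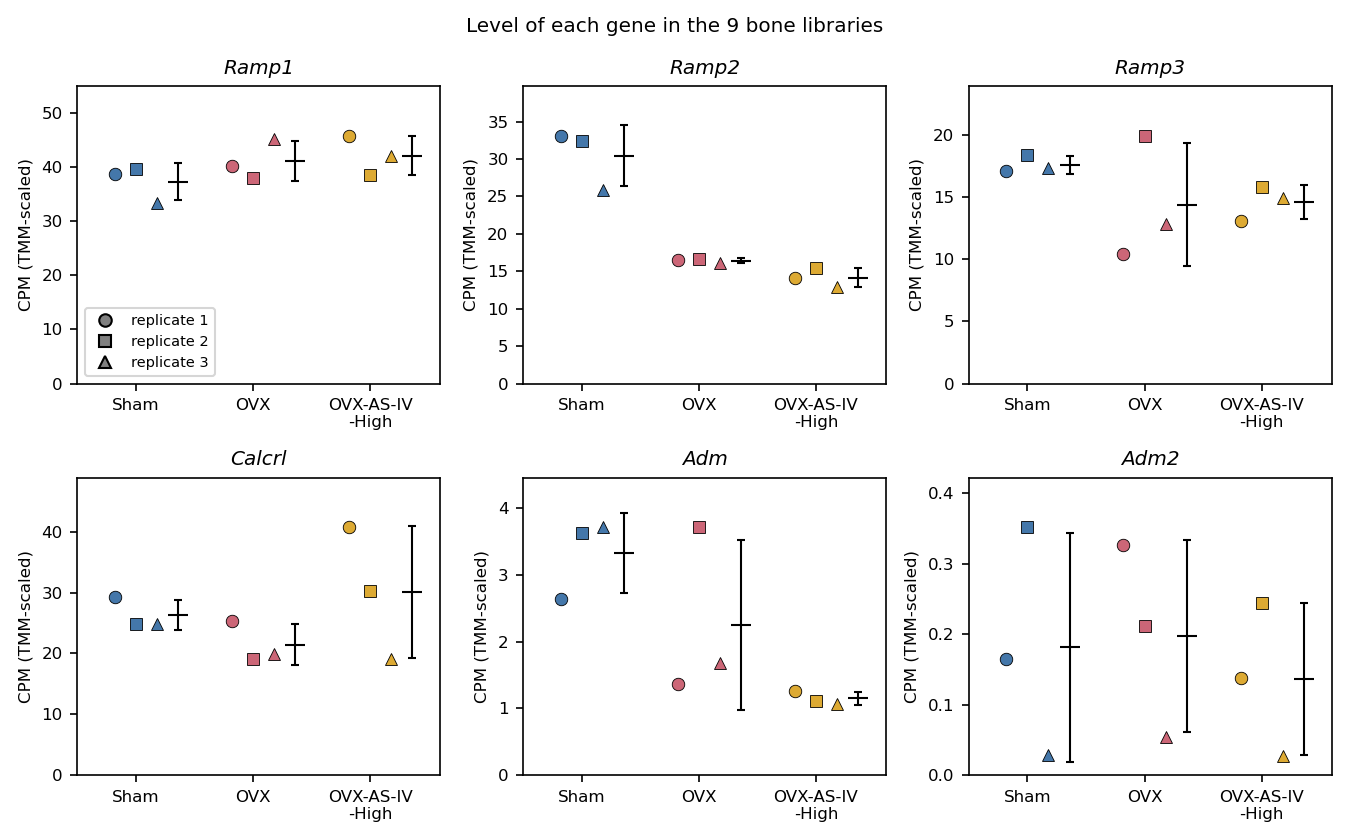
CPM of each of the 6 genes (y axis, scaled by TMM) in the 9 libraries, by group (x axis), with a marker shape for each replicate number and a bar for the mean ± SD (n = 3). The 3 Sham libraries of Ramp2, at 25.8 CPM or more, stand above the 6 libraries from ovariectomized rats, at 16.6 CPM or less, and Adm is lowest and tightest in treated rats.

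Adm, which encodes adrenomedullin, had the lowest level per transcript length (FPKM) of the tested members. It read 2.64, 3.64 and 3.72 CPM in Sham replicates 1, 2 and 3, 1.36, 3.72 and 1.68 in OVX rats, and 1.27, 1.11 and 1.07 in treated rats. OVX replicate 2 lay at the level of Sham, while the other two OVX libraries lay nearer to the treated ones, so Sham and OVX overlapped. The 3 treated libraries lay below all others. The means were 3.33 ± 0.602 CPM in Sham, 2.26 ± 1.28 in OVX rats, and 1.15 ± 0.103 in treated rats (SD, n = 3). These levels rest on few reads, 39 to 46 counts in each treated library and 96 to 132 in each Sham library.

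In OVX vs. Sham the log2FC of Adm was -0.56 (SE 0.376; edgeR, adjusted p = 0.458). For OVX-AS-IV-High vs. OVX it was -0.97 (SE 0.386), with an unadjusted p of 0.0323 and an adjusted p of 0.733 by edgeR. Much hung on OVX replicate 2: without it the second difference was -0.41, and the first was -1.13, past the study's thresholds. Without OVX replicate 1 or 3 the second was -1.23 or -1.14, also past them. The unadjusted p was above 0.05 in 6 of 16 other settings, up to 0.203 without OVX replicate 2. Treated and OVX libraries did not overlap for Adm, which is 1 of the 4 members and held for 6.36% of all genes tested in that direction.

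The RefSeq promoter table (build GRCr8) held 5 of the 6 members. The 250 bases before the start of Adm are printed because Adm, of the members other than Ramp2, differed most between groups. They lie at chr1:174179950-174180199 on the + strand, and the capitals mark TATAA, the core letters of a TATA box, 45 bases before the start of the gene.

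Adm: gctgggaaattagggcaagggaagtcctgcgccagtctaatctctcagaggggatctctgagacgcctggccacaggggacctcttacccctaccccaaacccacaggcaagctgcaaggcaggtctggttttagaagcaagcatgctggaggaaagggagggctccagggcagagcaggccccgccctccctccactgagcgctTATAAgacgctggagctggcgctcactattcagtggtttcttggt

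The promoter windows searched run from 250 bases before to 50 bases after each start, on both strands. TATAA was in 26.2% of all 33469 such windows and, among the 5 members matched, only in that of Adm, where a second match on the other strand overlaps the first. The hypoxia response core GCGTG, in 29.7% of all windows, was found once each in those of Ramp1, Ramp3 and Adm2, and the other core, ACGTG, in 19.3% of all windows, in 0 of 5. The palindromic estrogen response element GGTCANNNTGACC, in 0.0269% of all windows, was also in 0 of 5. A match is only a run of letters, and no binding was measured.

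Adm2, which encodes adrenomedullin 2 (intermedin), was close to the limit of detection. It had 6, 12 and 1 counts in Sham rats, 12, 8 and 2 in OVX rats, and 5, 9 and 1 in treated rats. All 3 groups overlapped, and the third replicate of each group had 3 counts or fewer. No fold change was computed at this depth.

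Calcrl, the receptor shared by all these pairings, varied most among the treated rats. It read 29.2, 24.9 and 24.8 CPM in Sham, 25.3, 19.1 and 19.9 in OVX rats, and 40.8, 30.3 and 19.1 in treated rats. Treated replicate 1 was the highest of the 9 libraries and treated replicate 3 was level with OVX replicate 2, so the treated range covered nearly that of both other groups. The means were 26.3 ± 2.52, 21.4 ± 3.39 and 30.0 ± 10.9 CPM (SD, n = 3).

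The log2FC of Calcrl was -0.30 (SE 0.241; edgeR, adjusted p = 0.54) in OVX vs. Sham. It was 0.49 (SE 0.241; edgeR, adjusted p = 0.818) for OVX-AS-IV-High vs. OVX, and became 0.20 without treated replicate 1 and 0.73 without treated replicate 3. With the replicate number as a block it was 0.45, with an unadjusted p of 0.0303 by edgeR in place of 0.0727. The unadjusted p by edgeR was also under 0.05 without treated replicate 3 (0.00277) or OVX replicate 1 (0.0493), and was 0.355 without treated replicate 1. Neither difference passed a call rule.

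Ramp1, whose product turns the shared receptor into the CGRP receptor, was measured with the smallest standard errors of the 5 members tested. It read 38.7, 39.8 and 33.5 CPM in Sham, 40.2, 38.0 and 45.3 in OVX rats, and 45.9, 38.5 and 42.1 in treated rats, and all 3 groups overlapped. The means were 37.3 ± 3.38, 41.2 ± 3.76 and 42.2 ± 3.68 CPM (SD, n = 3). The log2FC was 0.14 (SE 0.111; edgeR, adjusted p = 0.526) in OVX vs. Sham and 0.04 (SE 0.111; edgeR, adjusted p = 0.989) for OVX-AS-IV-High vs. OVX, and the sign of the latter changed with the library left out.

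Ramp2, whose product makes the main adrenomedullin receptor of blood vessels, was the gene that chose the set. It read 33.1, 32.4 and 25.8 CPM in Sham, 16.6, 16.6 and 16.1 in OVX rats, and 14.1, 15.4 and 12.9 in treated rats. Every Sham library lay above every OVX library, and every OVX library lay above every treated one. Treated libraries lay wholly below OVX for 6.36% of all genes tested. The means were 30.5 ± 4.04, 16.4 ± 0.318 and 14.2 ± 1.25 CPM (SD, n = 3), from at least 471 counts in each library.

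The log2FC of Ramp2 was -0.89 (SE 0.124) in OVX vs. Sham, which is 0.539 of the Sham level. It was -0.21 (SE 0.124) for OVX-AS-IV-High vs. OVX and -1.10 (SE 0.125) in OVX-AS-IV-High vs. Sham, the contrast behind the choice. Most of the distance between Sham and treated bone was thus already present in OVX rats given the carrier alone. Across fits that left out 1 library at a time, the log2FC ran from -0.995 to -0.832, from -0.28 to -0.152 and from -1.21 to -1.03 in these 3 comparisons. Libraries without overlap and with the first group lower were found for 10.6% of all genes tested in OVX vs. Sham, where among the 5 members tested only Ramp2 showed it.

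Ramp3, the other adrenomedullin-selective partner, was spread widely in OVX. It read 17.0, 18.4 and 17.3 CPM in Sham, 10.4, 19.9 and 12.8 in OVX rats, and 13.1, 15.8 and 14.9 in treated rats. OVX replicate 2 was the highest of the 9 libraries and OVX replicate 1 the lowest, so OVX covered both other groups. The means were 17.6 ± 0.719, 14.4 ± 4.94 and 14.6 ± 1.37 CPM (SD, n = 3). The log2FC was -0.29 (SE 0.215; edgeR, adjusted p = 0.502) in OVX vs. Sham and 0.02 (SE 0.215; edgeR, adjusted p = 0.996) for OVX-AS-IV-High vs. OVX, where the sign again changed with the library left out. Without OVX replicate 2, the same library that was high for Adm, the first value was -0.60.

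**Figure D2:**
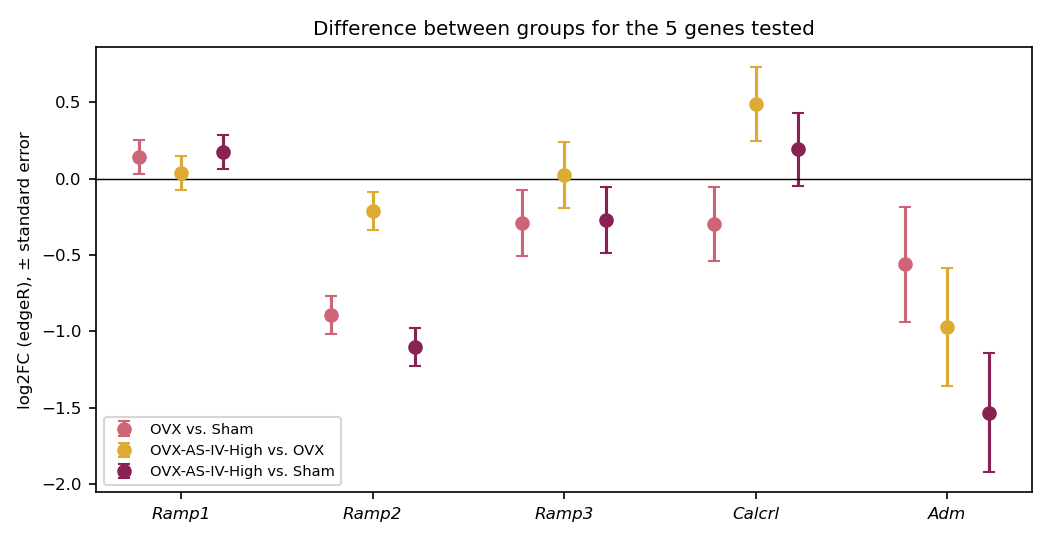
log2FC (y axis) of the 5 genes tested (x axis) in the 3 comparisons from the edgeR fit, with bars of ± 1 standard error. Ramp2 lies at -0.89 in OVX vs. Sham and -1.10 for OVX-AS-IV-High vs. Sham with short bars, Adm has the longest bars, and Ramp1 stays within 0.18 of 0.

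In OVX-AS-IV-High vs. Sham, given as values only, the log2FC was 0.18 (SE 0.111) for Ramp1, -0.27 (SE 0.215) for Ramp3, 0.19 (SE 0.24) for Calcrl and -1.53 (SE 0.388) for Adm. A log2FC under -1 was found for 2 of the 5 members tested, Ramp2 and Adm, and for 4.51% of all genes. Treated libraries lay wholly below Sham for 3 of 5, Ramp2, Ramp3 and Adm, and for 10.3% of all genes. Nothing is read from these counts, since this contrast chose the set.

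Levels of different genes were compared per transcript length, in FPKM. In Sham, Ramp1 had 34.6 ± 3.17, Ramp2 30.0 ± 4.14, Ramp3 14.0 ± 0.341, Calcrl 5.32 ± 0.609, Adm 2.39 ± 0.396 and Adm2 0.169 ± 0.149 FPKM (SD, n = 3). The libraries of Ramp1, at 31.0 to 36.7 FPKM, and those of Ramp2, at 25.4 to 33.3, overlapped there, and those of the other neighbours in this order did not. In OVX the level was 38.8 ± 3.05 for Ramp1, 16.5 ± 0.523 for Ramp2, 11.7 ± 4.17 for Ramp3, 4.41 ± 0.684 for Calcrl, 1.66 ± 0.962 for Adm and 0.188 ± 0.13 for Adm2. Ramp1 was then clear of Ramp2, while Ramp3 reached 16.4 FPKM in OVX replicate 2, beside 16.9 for Ramp2 in the same library. In OVX-AS-IV-High the level was 38.8 ± 3.01 for Ramp1, 13.9 ± 1.19 for Ramp2, 11.6 ± 1.22 for Ramp3, 6.01 ± 2.09 for Calcrl, 0.819 ± 0.0614 for Adm and 0.126 ± 0.101 for Adm2. The order of the means was the same in all 3 groups.

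Ramp1 lay above Ramp2 in each of the 9 libraries. By mean FPKM, Ramp2 stood above 85.4% of the genes tested in Sham, 74.4% in OVX rats, and 71.1% in treated rats, and Ramp1 above 87.2%, 88.4% and 88.8%. Each RAMP gene had more FPKM than Calcrl in every library.

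The make-up of the RAMP pool differed accordingly. Ramp2 gave 39.7%, 38.3% and 36.2% of the summed FPKM of the 3 RAMP genes in Sham, 26.4%, 24.3% and 23.3% in OVX rats, and 20.8%, 24% and 20% in treated rats. Sham did not overlap with either other group, and OVX and treated libraries did. The share of Ramp1 was 44 ± 0.289% in Sham, 58.1 ± 5.14% in OVX rats, and 60.4 ± 3.73% in treated rats, and that of Ramp3 was 17.9 ± 1.57%, 17.3 ± 5.43% and 18 ± 2.18% (SD, n = 3). Since shares sum to the whole, part of the difference in the Ramp1 share is that of Ramp2 seen from the other side. The pool itself came to 78.6 ± 7.42, 67 ± 3.61 and 64.3 ± 1.06 FPKM.

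**Figure D3:**
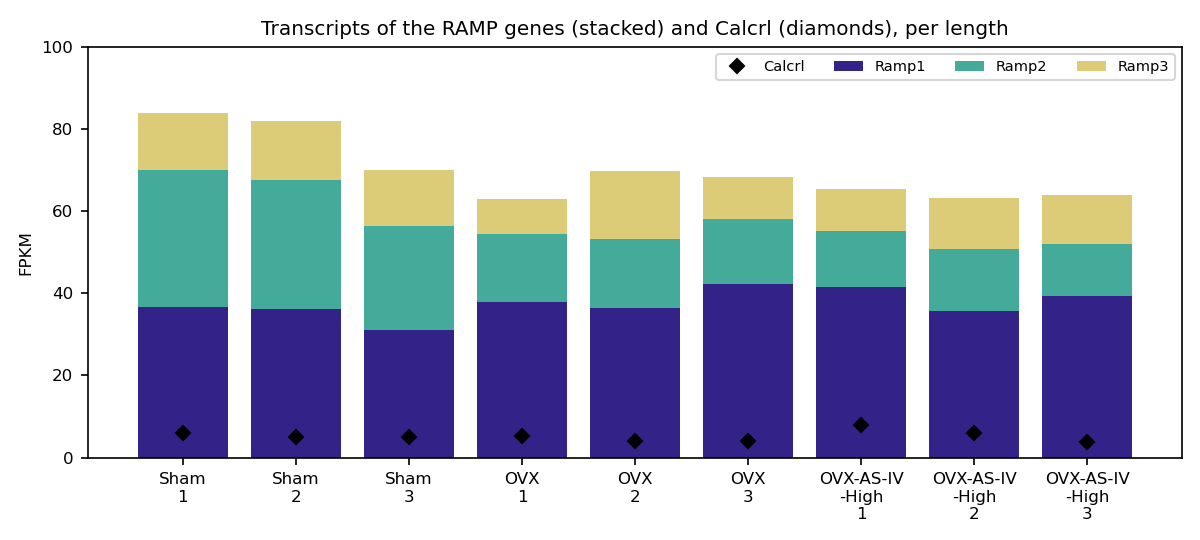
FPKM (y axis) of Ramp1, Ramp2 and Ramp3, stacked, with Calcrl as diamonds, in each of the 9 libraries (x axis). The Ramp2 layer is 25.4 to 33.3 FPKM in Sham and 12.8 to 16.9 in the 6 other libraries, while Calcrl stays at 8.06 FPKM or less.

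Per Calcrl transcript, Ramp2 came to 5.53, 6.35 and 5.07 in Sham, 3.19, 4.25 and 3.93 in OVX rats, and 1.69, 2.49 and 3.31 in treated rats, as ratios of FPKM. Sham lay above both other groups, which overlapped each other. The ratio of Ramp1 to Calcrl was 6.54 ± 0.695, 8.94 ± 1.57 and 7.03 ± 2.68 in the same groups, and that of Ramp3 to Calcrl 2.66 ± 0.32, 2.76 ± 1.26 and 2.13 ± 0.918 (SD, n = 3). These ratios involve Ramp2 or Calcrl as measured above and were not tested.

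Endothelial marker RNA was, like Ramp2, lower on average in both groups of ovariectomized rats. The summed CPM of 16 endothelial markers, all of which passed the filter, was 839, 870 and 650 in Sham, 699, 697 and 553 in OVX rats, and 595, 569 and 569 in treated rats. Sham and OVX overlapped, and Sham replicate 3 was low for these markers as it was for Ramp2. By edgeR 0 of 16 markers passed an adjusted p of 0.05 in OVX vs. Sham. At an unadjusted p under 0.05, 6 of 16 were lower, against 8.28% of all genes, and 0 of 16 were higher, against 8.16%. The median log2FC of the 16 was -0.32, and that of all genes -0.0062. Without Sham replicate 3, 9 of 16 were lower at that cut, for which the share of all genes was not counted without this library. By another rule, the study's thresholds in either direction, the genes passing over all genes also rose, from 525 to 1064.

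The 6 markers included Mmrn2, a protein of the vessel wall, at -0.80 (SE 0.171; edgeR, adjusted p = 0.138), and Plvap, of endothelial diaphragms, at -0.69 (SE 0.193; edgeR, adjusted p = 0.166). Emcn, of sinusoidal and type H vessels of bone, was at -0.47 (SE 0.193; edgeR, adjusted p = 0.274). The other 10 markers ran from -0.36 to 0.03, among them Cdh5, of endothelial junctions, at -0.31 (SE 0.178), Pecam1 at -0.06 (SE 0.197) and the VEGF receptor gene Kdr at 0.02 (SE 0.0874). The estimate was below 0 for 14 of 16.

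Ramp2 was also set against this marker sum, as a description of the gene that chose the set. It came to 3.95, 3.73 and 3.97 per 100 endothelial CPM in Sham, 2.37, 2.39 and 2.91 in OVX rats, and 2.37, 2.71 and 2.27 in treated rats. The lowest Sham library lay above the highest of the 6 others, and OVX and treated libraries overlapped. The outcome depended on the marker: against each of the 16 alone, a comparison chosen after seeing the data, the ratio was higher in all Sham libraries than in the 6 others for 12 and overlapped for 4, Emcn, Esam, Plvap and Mmrn2. Against Mmrn2 it was 1.1, 0.929 and 1.23 in Sham, 0.982, 1 and 1.02 in OVX rats, and 0.992, 0.963 and 0.85 in treated rats. Calcrl per 100 endothelial CPM was 3.48, 2.86 and 3.82 in Sham, 3.62, 2.74 and 3.6 in OVX rats, and 6.85, 5.32 and 3.35 in treated rats. Sham and OVX covered nearly the same range for Calcrl, and 2 of the 3 treated libraries lay above it.

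**Figure D4:**
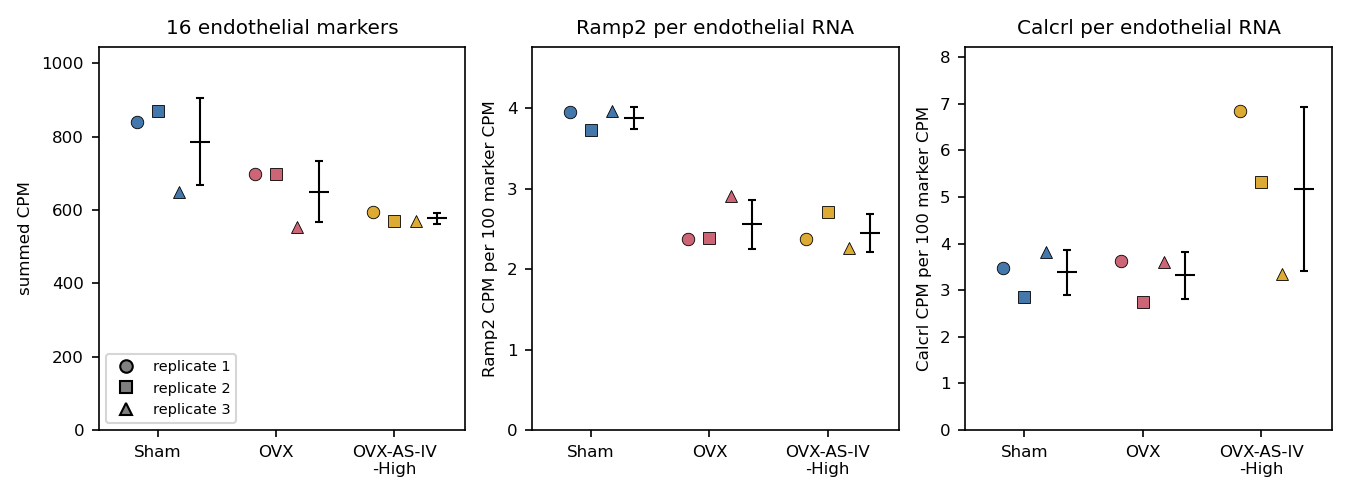
Summed CPM of 16 endothelial markers (left), Ramp2 per 100 endothelial marker CPM (middle) and Calcrl per 100 endothelial marker CPM (right), by group (x axis), with a marker shape for each replicate number and bars for the mean ± SD (n = 3). Ramp2 per 100 marker CPM is 3.73 or more in the Sham libraries and 2.91 or less in the others, and Calcrl reaches 6.85 in treated replicate 1.

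Markers of mural cells and muscle were also lower on average in both groups of ovariectomized rats. Summed CPM of 8 smooth muscle and pericyte markers was 884, 792 and 328 in Sham, 393, 357 and 242 in OVX rats, and 455, 336 and 242 in treated rats. By edgeR 0 of 8 had an adjusted p under 0.05 and, in OVX vs. Sham, 4 of 8 (Acta2, Cnn1, Myh11 and Tagln, all contractile proteins) were lower past the study's thresholds, with a median log2FC of -1.31 over the 8. Sham replicate 3 and OVX replicate 3 had nearly equal skeletal muscle sums, at 1334 and 1328 CPM, and Ramp2 at 25.8 and 16.1 CPM. These are 1 rat of each group, whose smooth muscle and pericyte sums (328 and 242 CPM) and endothelial sums (650 and 553 CPM) differed too. Nothing is read from this pair. Adipocyte markers went the other way from mural and muscle markers. In OVX vs. Sham 4 of 6 were higher past the study's thresholds, against the same 3.11% of all genes in either direction. Summed adipocyte CPM was 409 to 633 in Sham, 609 to 832 in OVX and 533 to 844 in treated rats. What part these cell types have in the Ramp2 values was not tested.

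In OVX-AS-IV-High vs. OVX, 0 of the 16 endothelial markers had an adjusted p under 0.05. At an unadjusted p under 0.05, 1 of 16, Pecam1, was lower, where 2.03% of all genes were, and 0 were higher, where 4.42% of all genes were. The median log2FC of the 16 was -0.13, against -0.0163 for all genes. The smooth muscle and pericyte list and the adipocyte list had 0 genes past either threshold or at an unadjusted p under 0.05 in that comparison.

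The other ligands and receptors of the family were low or did not pass a test. Calca, which encodes CGRP and calcitonin, had 2, 3 and 25 counts in Sham rats, 0, 1 and 13 in OVX rats, and 1, 15 and 0 in treated rats. Calcb, of the second CGRP, had 3 counts or fewer in each library. Calcr, the calcitonin receptor of osteoclasts, had 35, 44 and 94 counts in Sham rats, 13, 78 and 63 in OVX rats, and 19, 60 and 17 in treated rats, with a log2FC of -0.25 (SE 0.699; edgeR, adjusted p = 0.877) in OVX vs. Sham. Calca and Calcr varied more among rats of 1 group than between the group means.

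Of the receptors known to bind a RAMP, 7 were tested, Calcr among them. In both comparisons tested, 0 of 7 had an adjusted p under 0.05 and 0 of 7 an unadjusted p under 0.05, and the median log2FC was -0.02 and -0.16. Pth1r, the parathyroid hormone receptor of the osteoblast lineage and the RAMP-binding receptor best known in bone, had a log2FC of -0.02 (SE 0.278) in OVX vs. Sham. Gcgr, the glucagon receptor, was at -0.62 (SE 0.286; edgeR, adjusted p = 0.317).

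The 12 genes of peptide processing, binding and clearance gave a median log2FC of 0.0111 in OVX vs. Sham and -0.0836 for OVX-AS-IV-High vs. OVX. By edgeR 0 of 12 had an adjusted p under 0.05 in either comparison. Only Pcsk7, a proprotein convertase, had an unadjusted p under 0.05, in OVX vs. Sham, where 16.4% of all genes had. Its log2FC was -0.34 (SE 0.0961; edgeR, adjusted p = 0.167). Pam, the enzyme that amidates adrenomedullin, was at -0.03 (SE 0.2), and Ackr3, a scavenger receptor that takes up adrenomedullin, at -0.37 (SE 0.182; edgeR, adjusted p = 0.339).

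Among 27 tested genes of cyclic AMP signalling, 0 passed an adjusted p of 0.05 by edgeR, while in OVX vs. Sham 5 were higher and 6 lower at an unadjusted p under 0.05, against 8.16% and 8.28% of all genes, with a median log2FC of -0.0502. The lower ones included the adenylyl cyclases Adcy4, at -0.63 (SE 0.154; adjusted p = 0.149), and Adcy6, at -0.63 (SE 0.138; adjusted p = 0.14), and Rapgef3 (Epac1), a cyclic AMP-activated exchange factor, at -0.67 (SE 0.163; adjusted p = 0.149), all by edgeR. The other lower ones were Pde4a, Pde4c and Prkar2a. The higher ones included Prkacb, a catalytic subunit of protein kinase A, at 0.49 (SE 0.0808; edgeR, adjusted p = 0.118), and the phosphodiesterases Pde3b, at 0.59 (SE 0.177), and Pde4b, at 0.53 (SE 0.217), with Adcy7 and Crem besides. Without Sham replicate 3, 4 of 27 were lower at that cut, for which the share of all genes was not counted without this library. By the other rule, the study's thresholds in either direction, the genes passing over all genes rose from 525 to 1064. In OVX-AS-IV-High vs. OVX 0 of 27 had an adjusted p under 0.05. The transcription factor gene Creb1, 1 of 27, had an unadjusted p under 0.05, where 6.45% of all genes had. Its log2FC was 0.32 (SE 0.125; edgeR, adjusted p = 0.733).

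Adrenomedullin is known as a gene induced by low oxygen, and 18 genes of the HIF pathway and its targets were tested beside it. By edgeR 0 of 18 had an adjusted p under 0.05, while in OVX vs. Sham 1 was higher and 3 were lower at an unadjusted p under 0.05, against 8.16% and 8.28% of all genes, and the median log2FC was -0.0313. The 3 lower ones were Vegfa, the vascular growth factor, at -0.71 (SE 0.234; edgeR, adjusted p = 0.205), Car9, a carbonic anhydrase, at -0.66 (SE 0.271; edgeR, adjusted p = 0.272), and Epas1, which encodes HIF-2 alpha, at -0.25 (SE 0.102; edgeR, adjusted p = 0.276). Hk2, a hexokinase, was the higher one, at 0.36 (SE 0.154; edgeR, adjusted p = 0.284). For OVX-AS-IV-High vs. OVX 0 of 18 had an adjusted p under 0.05. At an unadjusted p under 0.05 there was 1 of 18, Hif1a, where 6.45% of all genes were. Its log2FC was 0.45 (SE 0.167; edgeR, adjusted p = 0.706), and that of Adm, as above, was -0.97.

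**Figure D5:**
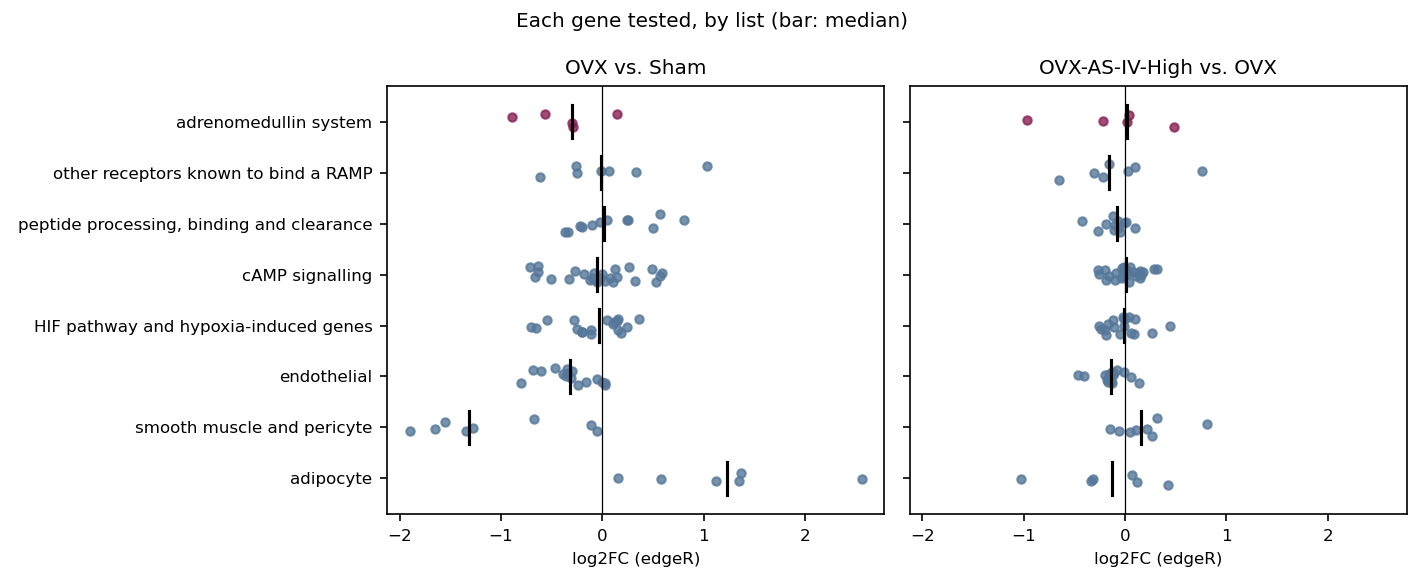
log2FC from the edgeR fit (x axis) of each gene tested in 8 lists (y axis) in OVX vs. Sham (left) and OVX-AS-IV-High vs. OVX (right), with a black bar for the median of the list. In OVX vs. Sham the endothelial and the smooth muscle and pericyte medians lie at -0.32 and -1.31 and the adipocyte median at 1.23, and the medians of cyclic AMP signalling, HIF pathway and peptide processing genes lie near 0.

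The genes whose log2 CPM followed Ramp2 most closely over the 9 libraries, by Pearson's r, were Ptms at 0.98, Scaf1 at 0.979, Syt7 at 0.976, Lgi3 at 0.975 and Sorbs3 at 0.97. With the group means removed, r was 0.876 for Ptms, 0.625 for Scaf1, 0.721 for Syt7, 0.566 for Lgi3 and 0.896 for Sorbs3. The libraries share their group, preparation and scaling, so these values describe likeness only. Syt7, a synaptotagmin, had 8.11 ± 1.71 CPM in Sham, 3.68 ± 0.68 in OVX rats, and 2.74 ± 0.305 in treated rats, and Lgi3, a secreted protein, had 3.43 ± 0.427, 1.59 ± 0.175 and 1.44 ± 0.0977 (SD, n = 3). Like Ramp2, both were highest in Sham with a smaller step between OVX and treated bone, which comes with their choice by likeness to Ramp2.

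The closest genes to the other members were Slc2a6, LOC120096237 and Slc32a1 for Ramp1 (r 0.936 to 0.972), Sdc4, Per1 and LOC120093538 for Ramp3 (r 0.947 to 0.972), Hsf2, Tceal8 and Fam174a for Calcrl (r 0.958 to 0.968), and Renbp, Bax and RT1-Bb for Adm (r 0.969 to 0.979). Sdc4, the syndecan nearest to Ramp3, had 74.9 ± 0.943 CPM in Sham, 53.6 ± 23.5 in OVX rats, and 54.4 ± 3.13 in treated rats (SD, n = 3). Its wide spread in OVX, like that of Ramp3, comes with its choice by likeness. Between members, r over the 9 libraries of all 3 groups was 0.749 for Ramp2 and Adm, 0.712 for Ramp3 and Adm, 0.499 for Ramp2 and Ramp3, and 0.101 for Ramp2 and Calcrl. It was -0.606 for Ramp1 and Adm, -0.556 for Ramp1 and Ramp3 and -0.517 for Ramp1 and Ramp2.

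The genes tested that lie on either side of Ramp2 in the RefSeq gene order (GRCr8), Ezh1, a histone methyltransferase, and Vps25, an ESCRT subunit, had smaller differences. Ezh1 lay between 72.8 and 97.8 CPM, with a log2FC of -0.14 (SE 0.103; edgeR, adjusted p = 0.485) in OVX vs. Sham. Vps25 lay between 62 and 77.1 CPM, with 0.07 (SE 0.0822; edgeR, adjusted p = 0.664). The Sham and OVX libraries overlapped for both neighbours. For OVX-AS-IV-High vs. OVX the log2FC was -0.06 for Ezh1 and -0.15 for Vps25, whose treated libraries lay wholly below OVX. In treated vs. Sham bone it was -0.20 for Ezh1, with treated libraries wholly below Sham, and -0.08 for Vps25.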

How the data were processed

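Bone mRNA of 9 rats was sequenced, 3 libraries per group. The authors preprocessed reads with NGS QC Toolkit, used Tophat/Bowtie2 for alignment, and quantified expression with eXpress. The submitters' processing notes name the build mRatBN7.2. The deposited files hold raw counts, as whole numbers, and the authors' FPKM, scaled for length and library size. Library preparation marked strand, whereas the use of strand in counting, and how estimates became whole counts, are not given in the sources used here.

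Differences were tested on counts by edgeR 4.0.16 in R 4.3.3 (quasi-likelihood F test) with TMM scaling, the default filter (minimum count 10) and all 9 libraries in 1 fit, with Benjamini–Hochberg adjustment over 16874 genes. The paper used DESeq, for which edgeR stands here. CPM are TMM-scaled, and standard errors are the log2FC divided by the root of the F statistic. Shares and ratios used FPKM or CPM as stated and were not tested. Totals of 34874880 to 37298250 counts set the precision, and 3 counts or fewer were taken as the limit of detection. The fits were tested on simulated data. Alternatives were DESeq2 1.42.0, RLE size factors, no filter, only the groups compared, limma 3.58.1 on log2(FPKM + 1) and log2(FPKM + 0.1), a replicate block and leaving out each library. Promoters were searched in Python 3.11.15 with pandas 2.3.3, and plots drawn with matplotlib 3.10.9.

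The members and all gene lists were chosen with earlier results of these data known. Genes named are the members, the genes of the lists, the tested neighbours of Ramp2 in RefSeq order (20734 of 23026 symbols matched), and the 5 genes most like Ramp2 and 3 most like each other tested member, by Pearson's r of log2 CPM (prior count 2). Lists of lymphatic endothelial, osteoclast, chondrocyte, erythroid, neutrophil, and T and NK markers were also counted, with 0 genes at an adjusted p under 0.05. A further marker list is not reported here. Correlations of deviations from the group means between libraries of the same number were 0.31, 0.158 and 0.13 for OVX-AS-IV-High and OVX, all above 0.1, so these were taken as paired (the fit reported had no block, as in the study's methods, and the blocked fit is an alternative), and 0.2, -0.161 and 0.253 for OVX and Sham, which were not. The labels do not say what the numbers share.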

Additional observations from a re-analysis of the deposited data

How the results depend on the processing

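The log2FC of Ramp2 kept its direction in all 3 comparisons under the 16 other settings, and so did Adm in all 3 and Calcrl in the 2 tested. In OVX-AS-IV-High vs. Sham, Ramp2 lay between -1.21 and -1.03 with 1 library left out at a time, its share of RAMP FPKM differed by -17.6 to -15.6 percentage points, and its log2 ratio to endothelial markers by -0.74 to -0.61. Ramp1 in OVX-AS-IV-High vs. OVX turned to -0.000260 and -0.000268 with limma on log2(FPKM + 1) and log2(FPKM + 0.1), and ran from -0.0305 to 0.109 with 1 library left out. These include -0.0207 without OVX replicate 2 and -0.0305 without treated replicate 1. Ramp3 in the same comparison ran from -0.17 to 0.33, and was below 0 without OVX replicate 1 (-0.17), OVX replicate 3 (-0.0562) or treated replicate 2 (-0.0394). The number of members past the study's thresholds, 0 in both comparisons tested, ran from 0 to 1 with 1 library left out, each time through Adm: -1.13 without OVX replicate 2 in OVX vs. Sham, and -1.23 and -1.14 without OVX replicates 1 and 3 for OVX-AS-IV-High vs. OVX. With the log2(FPKM + 1) scale, Adm in OVX-AS-IV-High vs. Sham was -0.89. The count of members with an adjusted p under 0.05 stayed at 0 in every setting. For OVX vs. Sham, OVX-AS-IV-High vs. OVX and OVX-AS-IV-High vs. Sham, genes past the study's thresholds numbered 74, 13 and 82 with limma on log2(FPKM + 1) and 304, 73 and 336 on log2(FPKM + 0.1), and without the filter 791 and 274 in the first 2. With 1 library left out they ranged from 387 to 1064, 141 to 219 and 409 to 940, and were 1064 and 862 without Sham replicate 3 in the comparisons with Sham and 940 without treated replicate 1 in OVX-AS-IV-High vs. Sham, and 215, 219 and 212 for OVX-AS-IV-High vs. OVX without OVX replicate 3 or treated replicates 1 or 3. Genes with an adjusted p under 0.05 numbered 834, 37 and 1009 with DESeq2, and 0 to 21, 0 to 29 and 0 to 141 with 1 library left out (21 and 5 without Sham replicate 3 in the comparisons with Sham, 1 without OVX replicate 1 in the second, 2, 2 and 5 without OVX replicate 3, 1 and 12 without treated replicate 1 and 29 and 141 without treated replicate 3 in both comparisons with the treated rats). Without the filter there were 5 in OVX-AS-IV-High vs. Sham. The replicate block gave 21 in OVX vs. Sham and 58 for OVX-AS-IV-High vs. Sham, where the numbers were not taken as paired. It gave 0 for OVX-AS-IV-High vs. OVX, where they were taken as paired from the correlations alone. Under the block, Calcrl in OVX-AS-IV-High vs. OVX was 0.45 (edgeR, unadjusted p = 0.0303) and Adm -0.86 (unadjusted p = 0.0456), and the block changed no call of a member by either call rule. The unadjusted p of Adm in that comparison was above 0.05 with only the groups compared (0.0552), limma on log2(FPKM + 1) (0.054), and without OVX replicate 2 (0.203) or treated replicates 1, 2 or 3 (0.0501, 0.075 and 0.0799). The cause of these differences was not tested. Counts of endothelial, smooth muscle and pericyte, and cyclic AMP genes lower in OVX vs. Sham without Sham replicate 3 were 9, 6 and 4 in place of 6, 4 and 6. This alternative was chosen after seeing the data. Without that library the genes past the study's thresholds rose to 1064 over all genes, as above. That is a stricter rule than the unadjusted p under 0.05 of these counts, and it takes both directions. Depth limits Adm2 and Calcb most, since several libraries held 3 counts or fewer, and Adm next.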

Other observations

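T and NK cell markers were used in none of the comparisons above. In OVX vs. Sham, 2 of 7 tested markers, Cd8a and Nkg7, had an unadjusted p under 0.05 and a higher level, against 8.16% of all genes, with a median log2FC of 0.71 over the 7. The estimate was higher for 6 of 7, and the exception, Gzmb (granzyme B), was at -2.27 (SE 1.37; edgeR, adjusted p = 0.412), with 6, 215 and 11 counts in the Sham libraries and 17, 25 and 10 in OVX. By edgeR 0 of 7 had an adjusted p under 0.05. The erythropoietin receptor gene, Epor, had a log2FC of -0.50 (SE 0.172; edgeR, adjusted p = 0.216) in OVX vs. Sham. Of the 7 erythroid markers tested, it was the 1 that was lower at an unadjusted p under 0.05 by edgeR, against 8.28% of all genes. The median log2FC of the 7 was -0.207, with 6 estimates lower and 1 higher.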
